A study of Mus musculus with 4 samples.

Results

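Endothelial cells line blood and lymphatic vessels, and 130 barcodes with an endothelial signature were found among 41777 kept barcodes of 4 single-cell libraries from mouse tumours and lymph nodes. A barcode was a member when it carried at least 2 unique molecular identifiers (UMIs) of Cdh5, Pecam1 and Egfl7 together, at least 1 of them from Cdh5 or Pecam1. It also needed no UMI of Ptprc, Tyrobp, Cd3d, Cd3e, Cd3g or Cd79a and at most 2 UMIs of Rhox5, a transcript abundant in the carcinoma cells of these libraries. Cdh5 (VE-cadherin) and Pecam1 join endothelial cells to one another, and Egfl7 is a protein that they secrete. Members were thus chosen by the UMI counts of these genes, so the levels of the genes are not results. The tumour libraries gave 91 members and the lymph node libraries 39.

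Tumours of CT26, a mouse colon carcinoma line, and their tumour-draining lymph nodes (TDLN) came from female mice aged 4 to 8 weeks. Each tissue was taken with NanoCa, which the series title describes as calcium crystals in a lipid nanoparticle for immunotherapy through interferon-beta, and as mock, with 1 library per group. A tag marks both mock libraries as having had no treatment, whereas the treatment protocol of all 4 libraries names NanoCa. The labels give no strain, no dose or time and no number of mice, and they call the cells immune cells sorted after CD45 staining with a gate that is not described, whereas the members lack the CD45 transcript (Ptprc). How many endothelial cells passed such a sort is not a measure of how many the tissue held.

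Blood capillaries exchange nutrients and in several tissues carry proteins that take up fatty acids. Growing tumour vessels form sprouts led by tip cells, which express Esm1, Apln, Angpt2 and Dll4 and lay down basement membrane. A lymph node normally also holds lymphatic sinuses, marked by Prox1, Lyve1 and Ccl21a, and high endothelial venules, marked by Glycam1, Chst4 and Madcam1, through which lymphocytes enter.

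The number of members was 65 of 11215 kept barcodes in tumour NanoCa and 26 of 9281 in tumour mock. In TDLN NanoCa 14 of 11013 barcodes were members and in TDLN mock 25 of 10268. These are shares of 0.58% (exact Clopper-Pearson 95% interval 0.448 to 0.738), 0.28% (0.183 to 0.41), 0.127% (0.0695 to 0.213) and 0.243% (0.158 to 0.359). Intervals in this text cover counting error alone, because no group has a replicate. In the tumour the NanoCa share stood above the mock share, with a log2 ratio of 1.05 (0.37 to 1.76). In the lymph node the order was opposite, at -0.94, with an interval from -1.99 to 0.062 that includes no difference. The tumour ratio was 0.58 (-0.086 to 1.26) when every barcode was thinned to 2000 UMIs, and the lymph node ratio -1.96 (-3.75 to -0.48). Tumour over TDLN, the log2 ratio of shares was 2.19 (1.34 to 3.14) with NanoCa and 0.20 (-0.65 to 1.05) with mock.

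**Figure D1:**
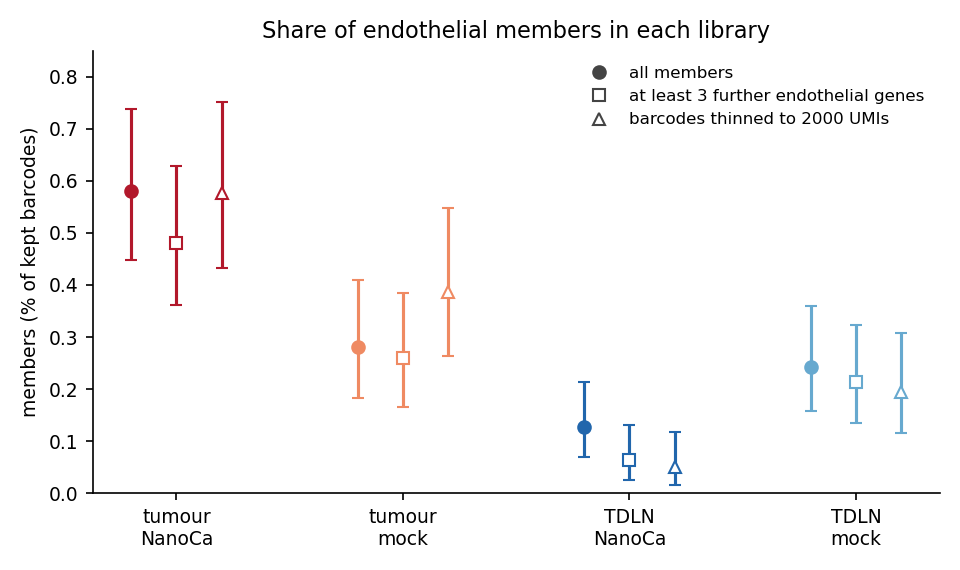
Share of kept barcodes that are endothelial members, in percent, for each of the 4 libraries. Filled circles are all members, squares the members with a UMI of at least 3 further endothelial genes, triangles barcodes thinned to 2000 UMIs, and bars exact 95% intervals. Tumour NanoCa has the highest share under all 3 settings and TDLN NanoCa the lowest.

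The endothelial label held for most members of 3 libraries and for fewer in TDLN NanoCa. Of 28 further endothelial genes, among them the VEGF receptors Flt1 and Kdr, the junction protein Cldn5 and the transcription factor Erg, the median member carried a UMI of 17 in tumour NanoCa, 21 in tumour mock and 19 in TDLN mock, but 3.5 in TDLN NanoCa. At least 3 of these genes were present in 54 of 65, 24 of 26 and 22 of 25 members of those 3 libraries, and in 7 of 14 members of TDLN NanoCa (50%, 23 to 77). The same criterion was met by 10.6% to 14.5% of T-cell barcodes and 29.7% to 51.1% of carcinoma-like barcodes, 41.9% in TDLN NanoCa. These shares were not matched for depth. Members had a median of 1476 UMIs in TDLN NanoCa and 4080 to 9265 UMIs in the other libraries. In tumour NanoCa the median was 5635 UMIs for members, 2367 for T-cell barcodes and 28817 for carcinoma-like barcodes. The 28 genes summed to 9454 and 12159 counts per 1000000 member UMIs (CPM) in tumour NanoCa and mock, and to 11124 and 11817 CPM in TDLN NanoCa and mock, against 344 to 489 CPM in the other kept barcodes. Members just inside the rule, with a marker sum of exactly 2, numbered 13, 2, 4 and 5 in that order of libraries, which is kept wherever 4 values follow each other, and held a median of 1, 4, 1.5 and 4 of the 28 genes. Barcodes just outside, with a sum of 1, numbered 61, 58, 8 and 23 and held a median of 1. Of members with exactly 2 Rhox5 UMIs there were 4, 1, 0 and 1, and 2, 0, 0 and 0 barcodes missed the rule with 3.

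A few large cells carried much of the lymph node signal. Members held 507518, 287597, 64997 and 307181 UMIs in all, with medians per member of 5635, 9265, 1476 and 4080. The 3 largest members made up 16.6% of these UMIs in tumour NanoCa and 25.3% in tumour mock, but 69.3% in TDLN NanoCa and 70% in TDLN mock. TDLN mock had members of 89279, 84554 and 41333 UMIs, and the largest in TDLN NanoCa had 32002, or 49.2% of its library's member UMIs. A gene at 0 could still reach 46.2 CPM in TDLN NanoCa, the level of 3 counts, against 5.91 to 10.4 CPM in the other libraries. Scrublet, a doublet score, removed 3 members of tumour NanoCa and 0 elsewhere. No barcode was shared between members of any 2 libraries.

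Markers of other cell types were present among members to differing degrees. The 13 genes of a carcinoma and epithelial list summed to 15.4 to 47.3 CPM, against 154 to 405 CPM in other kept barcodes, with Epcam and Krt19 at 0 in all 4 libraries. Xist, transcribed from the inactive X chromosome, had 309, 313, 662 and 195 CPM in members and 0.746 to 1.75 CPM in carcinoma-like barcodes. The 12 T-cell genes summed to 11.8 and 13.9 CPM in the tumour members, 785 CPM in TDLN NanoCa and 74.9 CPM in TDLN mock. The 12 macrophage genes summed to 217, 156, 46.2 and 87.9 CPM in members and to 643 to 1628 CPM in other barcodes. The 12 B-cell genes summed to 242, 337, 1415 and 273 CPM in members and to 67.2, 52.5, 1323 and 818 CPM in other barcodes. Ebf1, a B-cell factor that vessel-wall cells also express, made up most of this list. It had 205, 327, 1339 and 254 CPM, while Cd79b was at 0 in tumour mock and TDLN NanoCa. Mural-cell genes were higher in members than in other barcodes in all libraries but TDLN mock, with 737, 462, 185 and 19.5 CPM against 36.2, 34.3, 19.7 and 32.1 CPM.

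**Figure D2:**
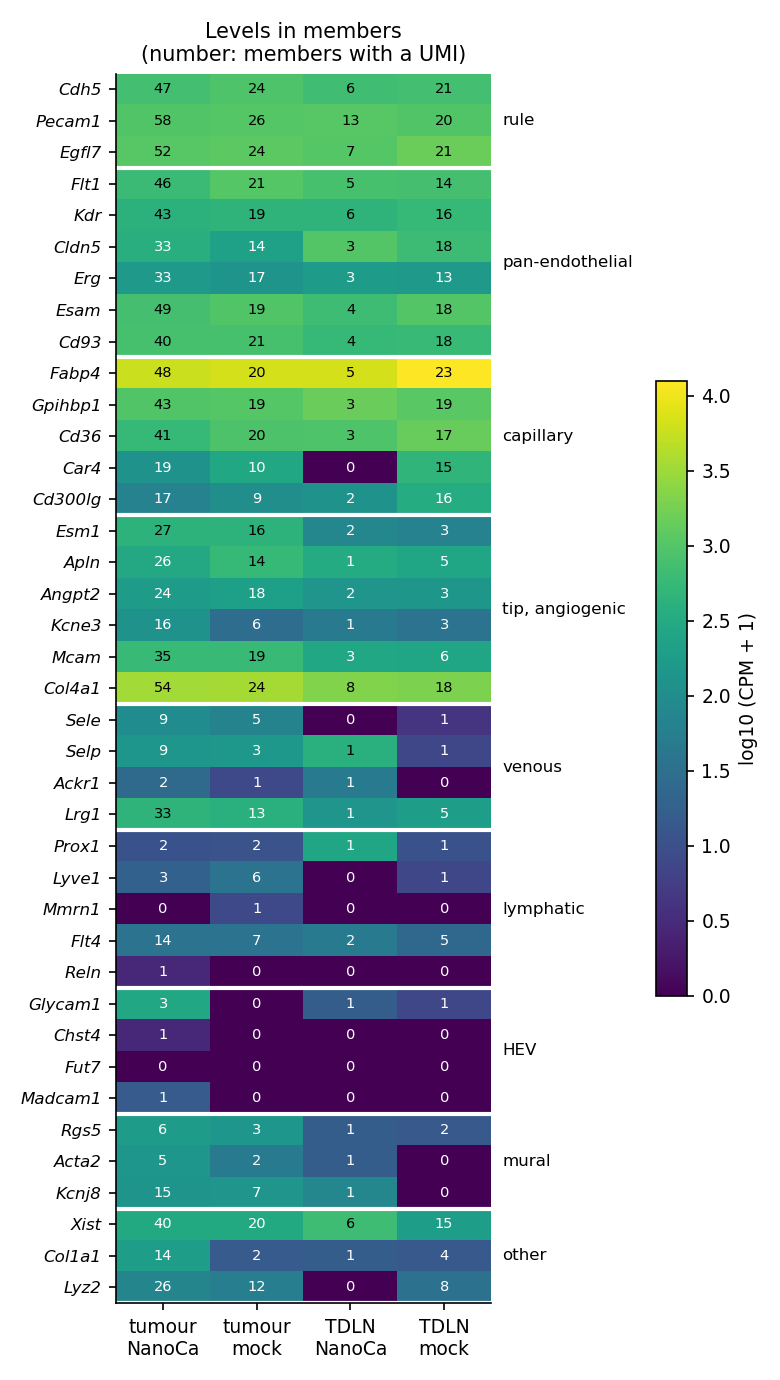
Levels of marker genes in the summed members of each library, as log10 of CPM + 1. Numbers are members with a UMI, of 65, 26, 14 and 25. Fabp4, Gpihbp1 and Cd36 are high in all 4 columns, Car4 is at 0 in TDLN NanoCa, and most lymphatic and high endothelial venule (HEV) genes are at or near 0 or rest on 1 to 3 cells, Flt4 and Lyve1 apart.

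Blood vessel markers were the most frequent of the 4 classes scored in every library. A member was called blood-marked with a UMI of at least 2 of Flt1, Emcn, Plvap, Sox17 and Vwf, and this held for 47 of 65 members of tumour NanoCa (72.3%, 59.8 to 82.7), 21 of 26 of tumour mock (80.8%, 60.6 to 93.4), 5 of 14 of TDLN NanoCa (35.7%, 12.8 to 64.9) and 17 of 25 of TDLN mock (68%, 46.5 to 85.1). Among T-cell barcodes the same mark was seen in 0.0291% to 0.495%. Plvap, which forms the diaphragms of fenestrated capillaries, had 1452 and 1926 CPM in the tumour members and 1554 and 1576 CPM in the TDLN members, NanoCa first. Emcn, a glycoprotein of capillary and venous endothelium, had 481, 535, 631 and 677 CPM. The libraries of the tissues overlapped for Plvap, while both node libraries lay above both tumour libraries for Emcn. Without the 3 largest members of each library Plvap had 1342, 1932, 1001 and 576 CPM and Emcn 470, 610, 350 and 402 CPM, which turns the order of Emcn round.

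Lymphatic cells were rare, also in the lymph node. With the same rule on Prox1, Lyve1, Mmrn1, Flt4 and Reln, 2 of 65, 3 of 26, 1 of 14 and 1 of 25 members were lymphatic-marked, that is 3.08%, 11.5%, 7.14% and 4%, and the intervals of all 4 overlap. Of these 7 cells, 4 were blood-marked too. The 1 in TDLN mock was the member of 84554 UMIs, with 2 Lyve1 and 3 Flt4 UMIs beside 54 Flt1, 90 Emcn and 643 Fabp4 UMIs. A TDLN mock member of 3813 UMIs carried only 1 of the 5 genes and was not marked. It had 3934 CPM of a longer list of 16 lymphatic genes, where the median of members with at least 2000 UMIs was 160. The clearest lymphatic pattern was 1 member of TDLN NanoCa with 2961 UMIs, of which 17 were Prox1, the factor that sets lymphatic identity, 8 Stab2, a scavenger receptor, and 11 Itga9, an integrin of lymphatic valves. It held 2 Plvap UMIs but no Flt1, Emcn or Fabp4 UMI. A tumour mock member of 20015 UMIs held 2 Prox1, 2 Mmrn1 and 2 Stab2 UMIs and again no Flt1 or Emcn. Ccl21a, the lymphatic and stromal chemokine that draws T cells and dendritic cells, was at 0 in members of every library. Elsewhere among the kept barcodes, 3, 2, 0 and 1 non-members were lymphatic-marked, so loosening the rule on immune genes would have added few.

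High endothelial venules were nearly unseen. Of Glycam1, Chst4, Fut7, Madcam1 and Ackr1, at least 2 were found in 1 of 65 members of tumour NanoCa and in 0 members of the other libraries, where the exact intervals reach 13.2% in tumour mock, 23.2% in TDLN NanoCa and 13.7% in TDLN mock. The limit from 3 counts is 11.5%, 21.4% and 12%. That single cell came from the tumour, not the node. It had 9607 UMIs, with 137 of Glycam1, the mucin ligand of L-selectin, and 7 of Madcam1, and it also held 4 Prox1, 4 Lyve1 and 1 Reln UMIs, but no Flt1, Emcn or Fabp4. Among kept non-members 1, 0, 2 and 1 barcodes carried the mark. A longer list of 14 venule genes, with Sele and Selp, reached 16342 CPM in that cell. It reached 17324 CPM in a tumour NanoCa member of 3752 UMIs and 5420 CPM in a TDLN NanoCa member of 5535 UMIs.

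**Figure D3:**
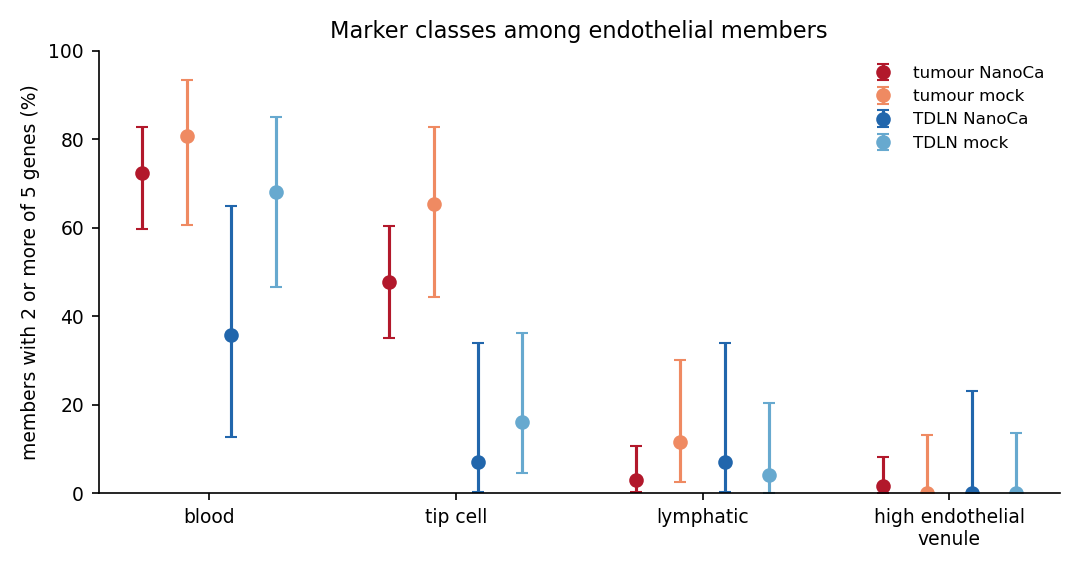
Percent of members with at least 2 of the 5 genes of each class, by library, with exact Clopper-Pearson 95% intervals, for 65, 26, 14 and 25 members. Tip-cell marks stand at 47.7% and 65.4% in tumour and at 7.14% and 16% in TDLN, while lymphatic and high endothelial venule marks are at or under 11.5% everywhere.

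Tip-cell marks were more frequent in the tumour. At least 2 of Apln, Esm1, Angpt2, Kcne3 and Dll4 were present in 31 of 65 members of tumour NanoCa (47.7%, 35.1 to 60.5) and 17 of 26 of tumour mock (65.4%, 44.3 to 82.8), but in 1 of 14 of TDLN NanoCa (7.14%, 0.181 to 33.9) and 4 of 25 of TDLN mock (16%, 4.54 to 36.1). Tip-marked members were also the larger ones, with median UMIs of 10757 and 14478 in tumour against 2564 and 3235 for the rest. Thinned to 2000 UMIs the counts were 14 of 52 (26.9%, 15.6 to 41), 10 of 23 (43.5%, 23.2 to 65.5), 1 of 6 (16.7%, 0.421 to 64.1) and 1 of 18 (5.56%, 0.141 to 27.3), so that the intervals of the tissues overlap at equal depth. Carcinoma-like barcodes bore the mark in 25.3% to 43% at full depth, and in 0.621% to 1.74% when thinned to the same depth. In the lymph nodes, 4 of the 5 tip-marked members were the 4 cells of 32002 UMIs or more.

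Esm1, a proteoglycan of sprouting tip cells, showed the same order. It had 447 and 452 CPM in tumour NanoCa and mock, from 27 of 65 and 16 of 26 members, and 76.9 and 65.1 CPM in TDLN NanoCa and mock, from 2 of 14 and 3 of 25 members. Both tumour libraries lay above both node libraries. The gene also reached 162 and 149 CPM in other tumour barcodes and 30.9 and 65.5 CPM in those of the nodes. Mcam, an adhesion molecule of endothelium and pericytes without that background (at most 1.91 CPM in other barcodes), had 575, 605, 277 and 254 CPM. Without the 3 largest members of each library it had 539 and 647 CPM in tumour and 50.1 and 43.5 CPM in TDLN. The basement-membrane collagen Col4a1 had 3340 and 3529 CPM in tumour against 2092 and 1966 CPM in TDLN, and 3348, 3669, 2603 and 880 CPM without those members.

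The design allowed 1 test across genes: the member UMIs of each library were summed and tissues compared with edgeR's quasi-likelihood test, with treatment as a covariate and 1 residual degree of freedom. Of 5070 genes tested outside the rule, 21 passed a Benjamini-Hochberg adjusted p of 0.05 (0.414%), 12 higher in tumour (0.237%) and 9 higher in TDLN (0.178%). All 21 calls were lost when members had to carry 3 further endothelial genes, and the same happened with a marker sum of at least 3, without the treatment term, and after thinning to 1000 UMIs. Without the largest member of each library 0 genes were higher in tumour and 4 higher in TDLN. Leaving out TDLN NanoCa gave 122 and 57 genes, and leaving out TDLN mock 241 and 210. Leaving out tumour NanoCa gave 1 and 3 genes, and leaving out tumour mock 4 and 4.

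Rgs5, a regulator of G-protein signalling best known from pericytes, had 181 CPM in tumour NanoCa and 143 CPM in tumour mock against 15.4 and 13 CPM in TDLN (log2 3.50 ± 0.75 SE, adjusted p = 0.0068 by edgeR). These levels came from few cells, 6 of 65 and 3 of 26 members, and 1 member held 62 of 92 UMIs and another 38 of 41. Acta2, smooth muscle actin, was higher by 4.41 ± 1.06 (adjusted p = 0.0256), again from 5 and 2 tumour members. Thy1, a glycoprotein of T cells, fibroblasts and tumour vessels, had 78.8 and 83.5 CPM in tumour and was at 0 in both node libraries, with 23 of 40 and 20 of 24 UMIs in 1 member each. Beside these, the 12 genes of a mural-cell list summed to 737 and 462 CPM in tumour and 185 and 19.5 CPM in TDLN, and the 13 fibroblast genes to 835, 389, 277 and 55.3 CPM. The part of attached mural cells or fibroblasts in these values was not tested.

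Ccn2, a matrix protein that responds to stretch and TGF-beta, was more widely spread. It was found in 23 of 65 and 13 of 26 tumour members at 266 and 313 CPM, and in 1 of 14 and 4 of 25 TDLN members at 15.4 and 61.9 CPM (log2 2.82 ± 0.63, adjusted p = 0.011 by edgeR). Ankrd37, a target of the hypoxia factor HIF-1, had 130 and 226 CPM in 19 and 11 members against 15.4 and 13 CPM in 1 and 2 (3.87 ± 0.77, adjusted p = 0.00314). Inhbb, a subunit of activin B, had 225 and 254 CPM against 30.8 and 68.4 CPM, in 31 and 16 tumour members and 2 and 5 TDLN members. Its adjusted p was 0.0874, short of the threshold. Pgf, the VEGF-family ligand of Flt1, had 86.7 and 393 CPM in tumour against 15.4 and 117 CPM in TDLN (adjusted p = 0.25). Of the 36 UMIs in TDLN mock 35 lay in 1 cell, and without the 3 largest members both node libraries were at 0. Adamts4, a protease of proteoglycans, had 274 and 376 CPM in 30 and 19 members against 76.9 and 146 CPM in 2 and 6 (adjusted p = 0.335). Bmp2, a growth factor, had 181 and 136 CPM in 16 and 11 members against 61.5 and 45.6 CPM in 1 and 3. Nt5e, the enzyme CD73 that makes adenosine, had 86.7 and 170 CPM in 20 and 13 members against 15.4 and 61.9 CPM in 1 and 3, and was at 0 in TDLN mock without the 3 largest. Neither passed. Tram2, Art3 and Adam19 were each at 76.5 to 101 CPM in the tumour libraries and at most 35.8 CPM in TDLN, without passing the test.

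A further group of calls concerned transcripts that other tumour barcodes hold too. Spp1 (osteopontin), with log2 3.56 ± 0.58 and an adjusted p of 0.000137 by edgeR, had 593 and 1321 CPM in tumour members but 5300 and 5022 CPM in other tumour barcodes. S100a6, Hmga2, Bgn, Ereg, Sele and Esm1 also did not reach 3 times the level of the other barcodes of both tumour libraries. Sele, E-selectin of activated venules, had 98.5 and 66.1 CPM against 0 and 3.26 CPM. The part of free RNA in these calls was not tested.

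Of the 9 genes higher in the lymph node members, several were also found in the other barcodes of the nodes. Satb1, Camk4, Dock10 and Ppm1h stood at 169 to 569 CPM in TDLN NanoCa members and 39.1 to 65.1 CPM in TDLN mock, and other barcodes of those libraries, mostly lymphocytes, had 58.1 to 497 and 34.7 to 244 CPM. They moved with the T-cell list, of which 9 of 12 genes had a UMI in TDLN NanoCa and 6 in TDLN mock, Skap1 among them with 15 and 4 UMIs, while Trbc1 was at 0. TDLN NanoCa members of 1647, 1304, 830, 825 and 727 UMIs had T-cell lists of 5464, 14571, 6024, 4848 and 4127 CPM. They held 1, 2, 1, 2 and 1 of the further endothelial genes. A TDLN mock member of 1218 UMIs had 8210 CPM and 2 of the further endothelial genes. All other node members had at most 1414 CPM with NanoCa and 1709 CPM with mock. The part of free RNA, or of members with high T-cell lists, in the Satb1, Camk4, Dock10 and Ppm1h calls was not tested. Pcdh15, a protocadherin, was at 0 in both tumour libraries and came from 1 member in each node library, with 15 and 24 UMIs. Auts2, a transcriptional regulator, had 323 and 140 CPM in 5 of 14 and 9 of 25 TDLN members against 19.7 and 27.8 CPM in tumour (-3.11 ± 0.64, adjusted p = 0.00391 by edgeR). Lrmda was called too, as was Ints6, which did not reach 3 times the level of other barcodes. Bin3 (adjusted p = 0.0256) had 185 and 84.6 CPM against 31.5 and 3.48 CPM.

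The other genes named for the node did not pass. Cldn5, the main tight-junction claudin of endothelium, had 380 and 219 CPM in tumour members and 1000 and 648 CPM in TDLN members. In TDLN NanoCa 63 of its 65 UMIs lay in 1 cell, and without the largest member of each library the sign reversed, from -1.41 to 0.14. Without the 3 largest it was 1652 CPM in TDLN mock and in TDLN NanoCa it stood at 2 UMIs. Hes1, a Notch target, had 78.8 and 41.7 CPM against 385 and 107 CPM, with 23 of 25 TDLN NanoCa UMIs in 1 cell. Without the 3 largest members it had 80.3 and 55.9 CPM against 50.1 and 130 CPM. Sema6a, a transmembrane semaphorin, had 84.7 and 66.1 CPM against 262 and 163 CPM in 6 of 14 and 13 of 25 members. Fat4, a cadherin important in lymphatic vessels, had 35.5 and 13.9 CPM in 14 and 2 members against 185 and 52.1 CPM in 5 and 8. Ablim3, St6galnac3, Kctd12, Lmo2 and Mcf2l had at most 51.2 CPM in tumour and 65.1 to 154 CPM in TDLN, with adjusted p of 0.133 or more.

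Few members of any gene list passed the tissue test. Tip-cell and angiogenic genes had a median log2 difference of 0.83 over 19 tested genes (1 called), basement membrane 0.74 over 17 (0 called) and hypoxia and glycolysis 0.74 over 19 (1 called, Ankrd37), beside 0.02 over all genes tested. Without TDLN NanoCa these 3 medians were 0.72, 0.45 and 0.13. Capillary genes had -0.34 over 10, fatty acid handling -0.39 over 8, but both medians changed sign, to 0.49 and 0.34, without the largest member of each library, where that of all genes was 0.16. The capillary and fatty acid lists share Cd36, Fabp4, Fabp5 and Gpihbp1, and the tip-cell and basement membrane lists Col4a1, Col4a2, Lamb1 and Nid2. Neither pair of lists gives separate evidence. The 26 pan-endothelial genes tested had 0.011, the 7 Notch genes -0.096 (0.39 without TDLN NanoCa) and the 12 junction genes -0.049. MHC class I genes stood at -0.012 over 19, and at -0.42 without TDLN NanoCa. Venous genes, at 0.64 over 10, had 2 called, Bgn and Sele, neither of which reached 3 times the level of other barcodes in both tumour libraries. Mural-cell genes, at 3.22 over 4, had 2 called, Rgs5 and Acta2, and lymphatic genes, at 0.86 over 5, had 1, Thy1. Sele is also the 1 gene called on the venule and leukocyte adhesion lists. All these calls were higher in tumour, as were 0.237% of all genes tested.

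Per cell, most of the deeper TDLN mock members had higher capillary levels than most tumour members. The 12 capillary genes, with the fatty-acid carrier Fabp4, its uptake receptor Cd36 and Gpihbp1, which anchors lipoprotein lipase, had a median of 44637 CPM among the 18 TDLN mock members of at least 2000 UMIs, with a range of 262 to 73080. The medians were 13411 CPM (0 to 78194) over 52 members of tumour NanoCa, 17224 CPM (1249 to 69312) over 23 of tumour mock and 5445 CPM (137 to 28311) over 6 of TDLN NanoCa. The ranges overlap, and the sums over libraries, 15073, 18675, 16570 and 23094 CPM, show little of this because the largest cells weigh most. Above 30000 CPM, a value chosen after the cells were seen, lay 12 of 18 members of TDLN mock, 7 of 52 of tumour NanoCa, 2 of 23 of tumour mock and 0 of 6 of TDLN NanoCa. The next TDLN mock member below that value had 18075 CPM and the next above 34722 CPM.

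Fabp4 alone had 5988, 6954, 6939 and 12133 CPM in the library sums. With every member thinned to 1000 UMIs, and so weighted alike, it had 8050 and 5846 CPM in tumour NanoCa and mock, 3000 CPM in TDLN NanoCa and 22842 CPM in TDLN mock. Thinned in the same way, Cd36 had 933, 1154, 1000 and 4000 CPM, the mucin-like capillary receptor Cd300lg 117, 76.9, 0 and 1105 CPM, and the chemokine Cxcl12 383, 192, 250 and 1579 CPM. TDLN mock was highest for each of these. Ly6c1, a surface protein of arterial and capillary endothelium, followed with 733, 423, 125 and 2526 CPM. TDLN NanoCa values rest on 8 members of that depth, against 60, 26 and 19 in the other libraries.

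The 3 largest TDLN mock members were not among the 12 capillary-high cells of their library and lay within the range of tumour members. Their capillary levels were 12030, 16877 and 10428 CPM, and their fatty acid handling 5432, 11756 and 4766 CPM against a library median of 40577. Hypoxia and glycolysis genes stood at 11918, 18331 and 10863 CPM in these cells, with a median of 3046 over the 18 deep members. The largest also carried 6060 CPM of cell cycle genes, where the median was 510. Tip-cell genes had 8692, 10136 and 8105 CPM in the 3 cells, around the tumour NanoCa median of 9438. Without them, Angpt2, the Tie2 ligand of sprouting vessels, went from 146 to 0 CPM in TDLN mock and Apln, the apelin peptide, from 257 to 32.6 CPM.

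**Figure D4:**
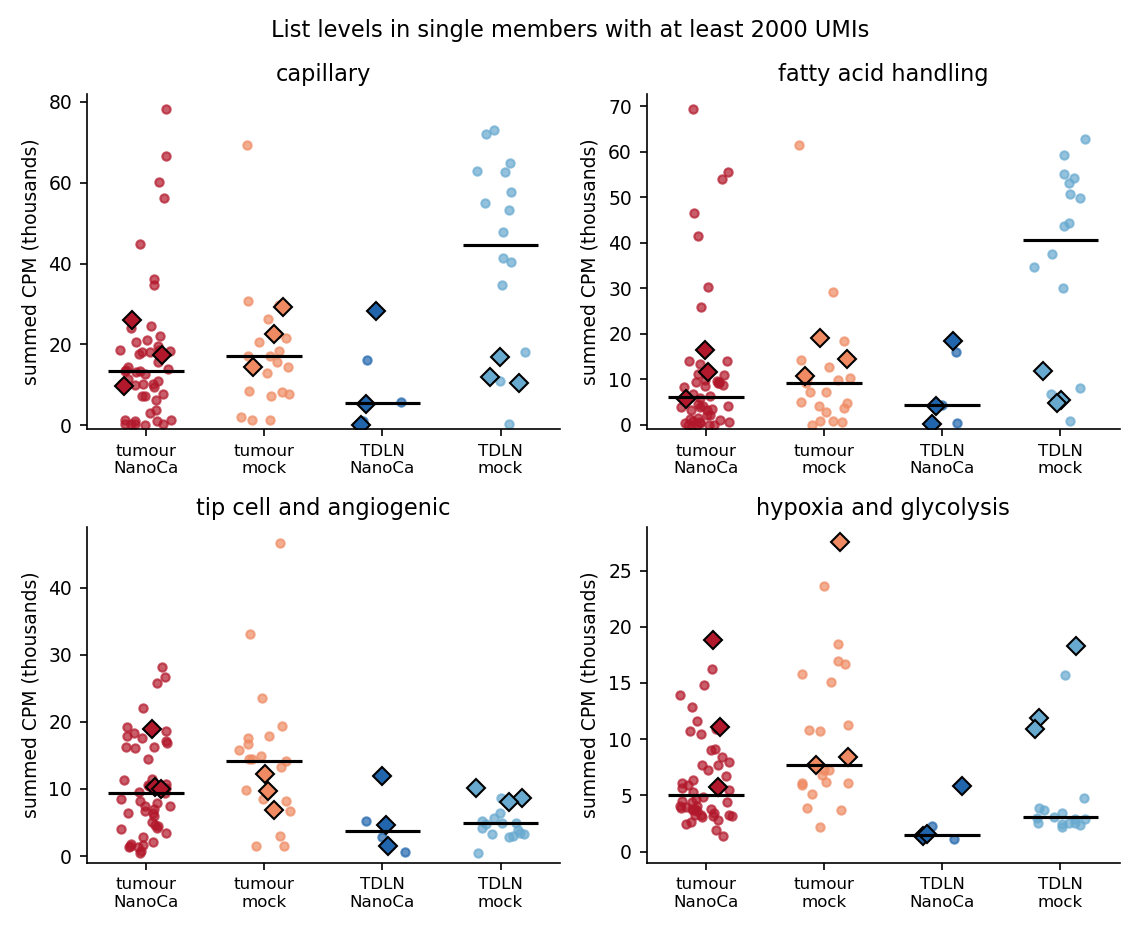
Summed levels of 4 gene lists in single members with at least 2000 UMIs, in units of 1000 CPM, for 52, 23, 6 and 18 members. Diamonds mark the 3 members with the most UMIs in each library and lines the medians. The capillary and fatty acid handling lists share Cd36, Fabp4, Fabp5 and Gpihbp1. In TDLN mock 12 of 18 members lie above 30000 CPM for the capillary list, and the 3 diamonds are not among them, at 10428 to 16877 CPM.

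NanoCa was set against mock within each tissue as 2 single libraries, without a test. Where both libraries together held 50 UMIs or more, a gene was called higher or lower where its CPM differed at least 1.5-fold and the exact binomial 95% interval of the ratio excluded 1. In the tumour 271 of 2849 genes were called higher (9.51%) and 183 lower (6.42%), with a median log2 ratio of 0.02. In TDLN 190 of 1326 genes were called higher (14.3%) and 315 lower (23.8%), with a median of -0.37 that median-of-ratios scaling moved to -0.0076. Lymph node ratios are best read against that shift, and with the 14 TDLN NanoCa members in mind.

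Hypoxia and glycolysis genes were lower in tumour NanoCa members. Of 19 measured genes 13 were called lower and 0 higher, beside 6.42% and 9.51% of all genes. The median log2 ratio was -0.67, and -0.53 when each gene lost the cell holding most of its UMIs. Bnip3, a HIF-1 target of mitochondrial clearance, had 19.7 CPM in NanoCa and 167 CPM in mock (-3.08, interval -4.23 to -2.08), from 7 of 65 and 13 of 26 members, and 71.2 and 122 CPM in other barcodes. Pfkfb3, a driver of glycolysis in sprouting endothelium, had 41.4 and 136 CPM (-1.71, -2.55 to -0.91). The enzymes Tpi1, with 398 and 702 CPM, Pgk1, with 430 and 723 CPM, and Ldha, with 1159 and 1763 CPM, were lower by -0.82, -0.75 and -0.61. The glucose transporter Slc2a1 was not called, at 102 and 115 CPM. Per member the list had a median of 5054 CPM over 52 deep NanoCa cells and 7656 CPM over 23 mock cells. Weighted alike at 1000 UMIs it had 5717 and 10154 CPM. In other kept barcodes the list summed to 10844 CPM in NanoCa and 11951 CPM in mock. Of 9 measured genes in TDLN 8 were called lower, beside 23.8% of all genes, with a median of -1.73 beside -0.37 for all genes. The 3 largest cells carry much of this level: without them the list summed to 3543 instead of 11033 CPM in TDLN mock and to 1602 instead of 3646 CPM in TDLN NanoCa.

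**Figure D5:**
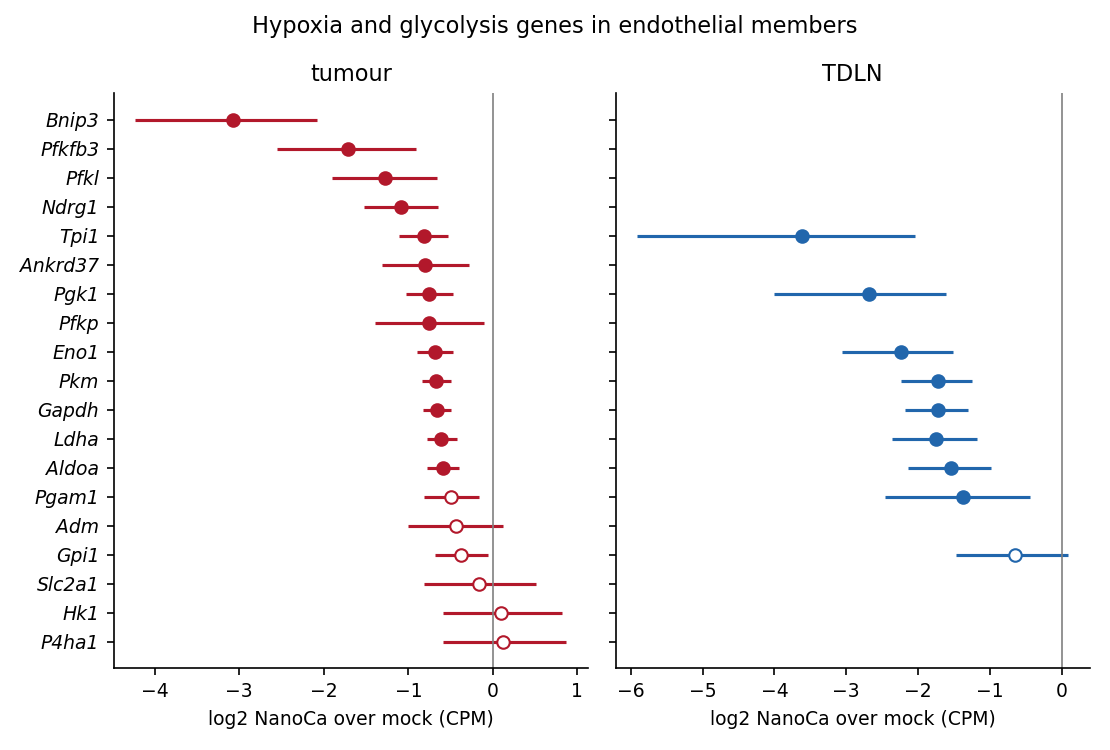
Log2 ratio of NanoCa to mock CPM for hypoxia and glycolysis genes with at least 50 UMIs, in tumour (left) and TDLN (right) members. Bars are exact binomial 95% intervals and filled points the called genes, 13 of 19 in tumour and 8 of 9 in TDLN, all lower in NanoCa.

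Of 11 measured VEGF, angiopoietin and apelin receptors and ligands 3 were called lower in tumour NanoCa and 1 higher, with a median log2 ratio of -0.12. Over all genes 6.42% were called lower and 9.51% higher. Pgf had 86.7 CPM in tumour NanoCa against 393 CPM in mock (-2.18, -2.72 to -1.67), and Apln 292 against 553 CPM (-0.92, -1.26 to -0.59). Stc1, a secreted glycoprotein of calcium and phosphate balance, had 67 and 226 CPM (-1.75, -2.40 to -1.13). Flt1, which can act as a decoy receptor for VEGF, was called lower at 615 and 1040 CPM. Kcne3, a potassium channel subunit of tip cells, went the other way with 124 and 27.8 CPM (2.16, 1.09 to 3.43), from 16 of 65 and 6 of 26 members, as did the apelin receptor Aplnr with 114 and 66.1 CPM. Over the 19 tip-cell and angiogenic genes 2 were called higher and 2 lower, near the background shares.

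Interferon lists differed in the direction of their median gene ratio between the tumour libraries. Of 15 interferon-gamma-induced genes 6 were called lower and 0 higher (median -0.55), and of 17 other interferon-stimulated genes 3 higher and 0 lower (median 0.43). Over all genes 6.42% were called lower and 9.51% higher. The interferon-stimulated list summed to 5298 CPM in NanoCa and 5414 CPM in mock, with medians of 3876 and 5040 CPM over deep members. Weighted alike at 1000 UMIs it had 5050 and 4269 CPM, so its direction depends on the measure. Cxcl9, the interferon-gamma chemokine for T cells, had 231 CPM in 16 NanoCa members and 974 CPM in 11 mock members (-2.08, -2.40 to -1.76). The GTPases Gbp4 and Iigp1 were lower by -0.98 and -0.95, and Irf1, a transcription factor of that response, by -0.94. Ubd, a ubiquitin-like protein induced by interferon-gamma and TNF, had 96.5 and 372 CPM (-1.95, -2.46 to -1.45), but 81 of its 107 mock UMIs lay in 1 member. Rsad2 (viperin), an antiviral enzyme, had 162 and 6.95 CPM (4.54, 2.64 to 7.61) from 8 and 2 members. Irf7 and Xaf1 were called higher by 0.70 and 0.81. Serping1, the C1 inhibitor, had 132 and 400 CPM (-1.60, -2.06 to -1.15), with 65 of 115 mock UMIs in 1 member.

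Of 17 MHC class I genes 3 were called lower in tumour NanoCa, beside 6.42% of all genes, and 14 were not called. H2-D1, a classical class I heavy chain, was among the 3 with -0.65. Cd74, the class II invariant chain, had 92.6 and 508 CPM (-2.45, -2.96 to -1.97), in 11 of 65 and 10 of 26 members, with 96 of 146 mock UMIs in 1 cell and 461 and 581 CPM in other barcodes. Weighted alike at 1000 UMIs per member it had 283 and 231 CPM, the opposite order, from 5 and 2 members. Without the 3 largest members of each library Cd74 had 99.2 and 228 CPM, again lower in NanoCa. A NanoCa member of 2147 UMIs, with 0 of the further endothelial genes, had 29809 CPM of MHC class II genes and 6986 CPM of B-cell genes. The part of this member in the opposite order was not tested. Fatty acid handling had 4 of 7 genes lower and 0 higher, with Angptl4, an inhibitor of lipoprotein lipase, at -1.10 and Cd36 at -0.68. The list summed to 8924 CPM in NanoCa and 11148 CPM in mock, but to 11767 and 10154 CPM with members weighted alike, which reverses the order. NanoCa stayed lower by the median over deep members, 6055 and 9148 CPM, and without the 3 largest members, 8571 and 9964 CPM. Cell cycle genes had 5 of 12 higher and 0 lower, beside 9.51% and 6.42% of all genes. The list summed to 2079 CPM in NanoCa and 1377 CPM in mock members, against 2816 and 2649 CPM in other barcodes. In mock 1 member held 60.9% of the list's UMIs. Mki67, a proliferation marker, had 164 and 55.6 CPM (1.56, 0.77 to 2.43) in 26 and 7 members, and Top2a 205 and 66.1 CPM (1.63, 0.92 to 2.42). At 1000 UMIs per member the cell cycle list had 1400 and 962 CPM.

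Of the other genes named for tumour NanoCa, single cells held most. Glycam1 was at least 27.6-fold higher than the level 3 counts would give in mock, where it was at 0, and 137 of 146 UMIs came from the cell described above. Clu (clusterin) had 422 and 62.6 CPM (2.75, 2.06 to 3.53), with 138 of 214 UMIs in 1 member. Gal, the neuropeptide galanin, had 98.5 and 6.95 CPM (3.82, 1.90 to 6.91) in 4 and 2 members. Acta2 had 144 and 48.7 CPM (1.56, 0.73 to 2.50). Of 3 measured fibroblast genes 3 were called higher, beside 9.51% of all genes. Among them Col1a1 had 189 and 13.9 CPM, with 70 of its 96 NanoCa UMIs in 1 member. Ecm1, a matrix protein, had 47.3 and 219 CPM (-2.21, -2.95 to -1.51), close in NanoCa to the 60.1 CPM of other barcodes.

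In TDLN, several interferon-induced and capillary genes present in mock members were scarce in NanoCa members. Of 7 interferon-gamma-induced genes 3 were called lower, of 5 other interferon-stimulated genes 3, and of 10 capillary genes 4, with 0 higher in each list, beside 23.8% of all genes called lower. The medians were -1.34, -1.06 and -0.42, the last near the -0.37 of all genes, and median-of-ratios scaling gave -0.99, -0.70 and -0.065. Ly6a (Sca-1), an interferon-inducible surface protein of endothelium, had 92.3 CPM in 3 of 14 NanoCa members and 2197 CPM in 17 of 25 mock members (-4.57, -6.02 to -3.44). Thinned to 1000 UMIs it was at 0 in 8 NanoCa members and at 1842 CPM in 19 mock members. Hspb1, a small heat-shock protein, had 92.3 and 977 CPM (-3.40, -4.86 to -2.26) in 2 and 18 members. Car4, a carbonic anhydrase of capillaries, was at 0 in NanoCa and had 485 CPM in 15 mock members, at least 10.5-fold lower by the level of 3 counts. Cxcl9 had 76.9 and 902 CPM (-3.55, -5.19 to -2.31), though 170 of 277 mock UMIs lay in 1 member. Ubd and Tnfrsf9, a costimulatory receptor, were at 0 in NanoCa and at 811 and 361 CPM in mock, in 4 and 3 members, or at least 17.6-fold and 7.83-fold lower. The 3 largest mock cells held 243 of 249 Ubd UMIs and all 111 of Tnfrsf9. Without them mock had 65.2 and 0 CPM, and Cxcl9 had 150 CPM in NanoCa and 196 CPM in mock.

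The 6 genes named among those called higher in TDLN NanoCa were found in the other barcodes of that library too, at 30.7 to 219 CPM. Hivep2, a zinc-finger transcription factor, had 754 and 71.6 CPM (3.40, 2.64 to 4.19) in 8 of 14 and 10 of 25 members, with 27 of 49 NanoCa UMIs in 1 cell, Igf1r, the IGF-1 receptor, 569 and 65.1 CPM (3.13, 2.31 to 3.99), and Trps1, a GATA-type repressor, 585 and 48.8 CPM (3.58, 2.69 to 4.55). For Slit3, a guidance ligand, all 51 UMIs came from 1 member (4.11, 3.23 to 5.07). The long noncoding RNAs Lncpint, with 738 and 81.4 CPM, and Neat1, with 554 and 78.1 CPM, were higher by 3.18 and 2.83. In TDLN NanoCa the 3 largest members held 36 of 38 Trps1, 28 of 49 Hivep2 and 25 of 37 Igf1r UMIs. They also held 19 of 48 Lncpint and 19 of 36 Neat1 UMIs. T-cell lists in these 3 members stood at 125, 137 and 0 CPM. The libraries also differ in the T-cell list over all members, at 785 against 74.9 CPM. Further endothelial genes per member had a median of 3.5 against 19. The part of either difference in these calls was not tested.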

How the data were processed

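Each of the 4 libraries is a matrix of raw UMI counts per gene and barcode, deposited by the authors. The matrices were written by Cell Ranger 7.1.0 per the file headers, a tool that the submitters' processing notes list too. No source used here names the genome build. A barcode was kept if it had 200 or more detected genes and no more than 10% mitochondrial UMIs. Libraries held 74909974 to 167924801 UMIs, and medians of kept barcodes were 4238 to 12629.

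The members and gene lists were chosen with earlier results of these data known. Members were summed per library. Tissues were compared with edgeR 4.0.16 (quasi-likelihood test, TMM, filterByExpr, treatment plus tissue, Benjamini-Hochberg over all genes), with DESeq2 1.42.0 as an alternative. The test was checked on simulated data. NanoCa and mock were compared by CPM with exact binomial 95% intervals (scipy 1.17.1), without a test. T-cell barcodes carried at least 3 Cd3 UMIs and carcinoma-like barcodes at least 10 of Rhox5 and none of Ptprc. Doublets were scored with Scrublet in scanpy 1.11.5.

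Genes named for tissue had at least 50 UMIs, the same sign in both arms, at least 50 CPM in both libraries of the higher tissue and 3 times the level of its other barcodes; the 12 largest in each direction were taken by the smaller arm ratio. For treatment, the 6 highest and 6 lowest called genes past the same CPM and background limits were ranked by the interval bound nearest 1. Mitochondrial, ribosomal, hemoglobin, immunoglobulin, T-cell receptor and unnamed genes were left out. A few genes that this rule takes are not reported here. List members and all genes that passed the tissue test were also named. Analyses restricted to members with at least 3 further endothelial genes, without the largest members, or per member were chosen after the data were seen.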

Additional observations from a re-analysis of the deposited data

Results flagged for a closer look

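The share of endothelial members moved in opposite directions with NanoCa in the 2 tissues, with a log2 ratio to mock of 1.05 in tumour and -0.94 in TDLN. That difference between tissues was not tested, since each group has 1 library, and the TDLN interval includes 0.

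Among named genes, Hspb1 and Neat1 were called in opposite directions. Of all 1317 genes measured in both tissues, 30 were. Hspb1 had a log2 ratio of NanoCa to mock of 0.64 in tumour and -3.40 in TDLN. Neat1 had -0.68 in tumour and 2.83 in TDLN. Neither difference was tested. In TDLN NanoCa, 2 of 14 members held an Hspb1 UMI and 6 held Neat1.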

How the results depend on the processing

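No paired analysis was possible because the labels carry no replicate numbers and each group has 1 library. The cause of the changes below was not tested.

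The TDLN NanoCa share was 0.0636% with 2 of the 3 marker genes or 3 further endothelial genes and 0.05% after thinning to 2000 UMIs. Share ratios kept their sign, but whether the interval includes 0 changed in a few settings: the tumour ratio was 0.58 after thinning; the TDLN ratio was -1.75 with 2 marker genes or 3 further endothelial genes, -1.70 with at most 5% mitochondrial UMIs and -1.96 after thinning; tumour over TDLN within mock was 0.99 after thinning.

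Genes higher in tumour and in TDLN numbered 2 and 1 with DESeq2, 0 and 0 with tissue alone (199 genes at an unadjusted p under 0.05), with a marker sum of at least 3 (200), after thinning to 1000 UMIs (31) and with 3 further endothelial genes (245), 5 and 5 without lymphatic-marked members, 6 and 5 with Rhox5 at 0, and 0 and 4 without the largest member of each library. Without a count filter 18 were higher in TDLN. Leaving out 1 library gave 1 to 241 higher in tumour and 3 to 210 higher in TDLN; the lone library of a tissue is then assumed to vary like the others. Cldn5 reversed to 0.14 without the largest members.

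For NanoCa against mock in tumour, 516 genes were higher with a minimum of 20 UMIs, 165 past 2-fold, 130 with Rhox5 at 0 and 8 after thinning to 1000 UMIs; 52 were lower past 2-fold, 94 when each gene lost its top cell and 23 after thinning. In TDLN, 536 were higher at 20 UMIs, 66 without top cells and 6 after thinning; 166 were lower with TMM, 152 with median-of-ratios scaling, 496 without top cells and 17 after thinning.

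With at least 1 of 5 genes, lymphatic-marked members were 26.2% in tumour NanoCa, 46.2% in tumour mock and 24% in TDLN mock, high endothelial venule-marked 9.23% in tumour NanoCa, and tip-marked 66.2% in tumour NanoCa and 52% in TDLN mock. With 3 of 5, lymphatic marks were 0 in both TDLN libraries and high endothelial venule marks 0 in tumour NanoCa. Thinned to 2000 UMIs, lymphatic marks were 0 in both tumour libraries and TDLN mock, and tip marks 26.9% in tumour NanoCa and 43.5% in tumour mock. Blood marks in tumour NanoCa were 88.5% with a marker sum of at least 3 and 87% with 3 further endothelial genes, and 71.4% in TDLN NanoCa with the latter.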
